A study of Mus musculus with 24 samples.

Results

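The insulin and growth factor feedback genes described here are 10 genes of the signaling route from insulin and insulin-like growth factors to the FOXO transcription factors: *Igf1* and *Igfbp5*, the receptor genes *Insr* and *Igf1r*, the adaptor genes *Irs1*, *Irs2* and *Grb10*, the PI3-kinase inhibitor *Pik3ip1*, and *Foxo1* and *Foxo3*. They were chosen by name, and all 10 were found among the 55385 gene identifiers of the count files. RNA of the whole hippocampus was sequenced from 24 adult mice in 6 groups of 4. All mice were homozygous for a floxed *Tsc1* allele and all received tamoxifen, the controls included. *Tsc1-Cre-* controls lacked the Camk2a-CreERT2 transgene and were taken on day 8 after the start of tamoxifen. *Tsc1-Cre+* mice carried it and were taken on day 4, 6, 8 or 13. *Tsc1-Cre+-Rap 4* mice carried it too, received 10 mg/kg rapamycin daily from day 4 and were taken on day 13. Only neurons that express CAMK2A lose *Tsc1* in this model, so interneurons, glia and vessels in the same tissue keep the gene. Mice of both sexes were included, but the labels do not say which mouse was which.

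Insulin and IGF1 bind the receptors INSR and IGF1R, which phosphorylate the adaptors IRS1 and IRS2 and thereby recruit PI3-kinase. PI3-kinase activates AKT, and AKT inhibits the TSC complex, so that mTORC1 becomes active, and keeps the FOXO factors out of the nucleus. Active mTORC1 in turn restrains the receptor step through S6 kinase, IRS1 and GRB10, and FOXO factors induce receptor and adaptor genes when AKT is quiet. Much of this feedback acts on proteins, which RNA levels do not show.

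In short, *Foxo1* fell by 1.02 on the log2 scale and *Irs1* by 0.65 on day 13, and no other of the 10 genes was called in any group against the controls. Under rapamycin, no member was called against the controls. *Foxo1* and *Igfbp5* were higher in Rap 4 mice than in untreated mice of the same day. To be called, a gene needed an adjusted p under 0.05 and a log2 fold change beyond 0.5 in either direction. Fold changes and adjusted p-values below come from edgeR's quasi-likelihood test on the 8 mice of a comparison, with Benjamini-Hochberg adjustment over all genes tested, and levels are CPM, the counts divided by library size and scaled with TMM factors. All 10 genes passed the filter on low counts in all 6 comparisons, and the lowest count of a member in a mouse was 206, for *Igf1*.

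The stretches of 250 bases before the RefSeq start sites of 4 members are shown because *Foxo1*, *Irs1* and *Igfbp5* were the members called and *Irs2* is the paralog of *Irs1*. They are written 5′ to 3′ on the strand of the gene, from GRCm38.p6, and capitals mark 2 of the motifs that were searched on both strands, the insulin response sequence CAAAACAA, which reads TTGTTTTG on the other strand, and the E-box CACGTG. The window of *Irs1* lies on the minus strand at chr1:82291440-82291689, that of *Irs2* on the minus strand at chr8:11008930-11009179, *Foxo1* on the plus strand at chr3:52268087-52268336 and *Igfbp5* on the minus strand at chr1:72874866-72875115.
Irs1: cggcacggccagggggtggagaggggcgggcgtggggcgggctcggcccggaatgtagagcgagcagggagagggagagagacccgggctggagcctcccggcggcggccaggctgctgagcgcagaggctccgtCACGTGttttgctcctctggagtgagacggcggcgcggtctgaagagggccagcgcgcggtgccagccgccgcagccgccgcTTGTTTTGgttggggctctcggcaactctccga
Irs2: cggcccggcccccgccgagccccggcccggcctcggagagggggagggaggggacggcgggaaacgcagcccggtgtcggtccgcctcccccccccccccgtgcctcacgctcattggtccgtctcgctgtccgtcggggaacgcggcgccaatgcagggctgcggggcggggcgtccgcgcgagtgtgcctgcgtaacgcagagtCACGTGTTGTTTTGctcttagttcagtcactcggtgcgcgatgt
Foxo1: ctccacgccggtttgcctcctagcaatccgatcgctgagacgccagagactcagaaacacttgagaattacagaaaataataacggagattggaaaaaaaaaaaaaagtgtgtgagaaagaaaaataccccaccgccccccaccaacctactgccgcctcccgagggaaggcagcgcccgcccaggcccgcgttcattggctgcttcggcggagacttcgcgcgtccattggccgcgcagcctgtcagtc
Igfbp5: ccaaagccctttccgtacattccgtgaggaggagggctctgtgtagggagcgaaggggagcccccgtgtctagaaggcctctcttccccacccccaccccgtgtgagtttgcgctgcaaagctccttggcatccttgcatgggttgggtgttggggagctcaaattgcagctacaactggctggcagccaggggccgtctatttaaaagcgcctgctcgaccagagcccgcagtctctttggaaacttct
The windows of both adaptors held the insulin response sequence and the E-box, which overlap in neither window but lie side by side in that of *Irs2*. The insulin response sequence was found in 2.21% and the E-box in 6.02% of all 32851 promoter windows of this length. Neither motif was found in the windows of the other 7 members with an entry, and *Insr* had no entry. The forkhead motif GTAAACA (3.17% of all windows), the cAMP response element TGACGTCA (1.55%) and the D-box TTACGTAA (0.113%) were found in no member's window. The *Irs1* and *Irs2* windows held 28 and 34 CpG pairs, those of *Foxo1* and *Igfbp5* held 20 and 10, and the median over all windows was 6. The windows of *Foxo1* and *Igfbp5* reach slightly into the gene as GENCODE draws it. A match is only a match of letters, and binding was not measured.

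Totals ranged from 28208561 to 126435936 counts per mouse, with a median of 55582027. *Tsc1* itself, the targeted gene, had 105 ± 3.21 CPM (SD, n = 4) in controls and was below every control in all 20 Cre-positive mice. Markers of hippocampal excitatory neurons summed to between 3787 and 4654 CPM in the controls. The animal numbers of controls and day 8 mice fall in 2 shared series, whereas those of the other groups fall in other series. For these groups the time point and the number series cannot be told apart, and the labels do not say what a series stands for. In a bulk sample, fewer cells of a type and less RNA per cell cannot be told apart. The labels give each mouse as a sample of its own, and 4 mice against 4 cannot give an exact permutation p below 0.0286.

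Compared per kilobase of exon, the binding protein gene *Igfbp5* was the most abundant member in control hippocampus, with 21.5 ± 3.39 CPM per kb (SD, n = 4). *Foxo3* and *Irs2* came next, both with 13.7 CPM per kb and with overlapping ranges. The receptors followed, *Igf1r* with 9.65 ± 0.323 and *Insr* with 8.53 ± 0.228 CPM per kb. *Pik3ip1* had 6.75 ± 0.637 CPM per kb. *Irs1*, with 4.19 ± 0.225, and *Grb10*, with 3.96 ± 0.372 CPM per kb, had overlapping ranges. *Foxo1* had 3.08 ± 0.294 and the ligand *Igf1* 0.775 ± 0.0750 CPM per kb. In GRCm38, *Irs2* lies in chr8:10984681-11008458, *Grb10* in chr11:11930508-12038683, *Insr* in chr8:3122061-3279617, *Igf1r* in chr7:67952827-68233668, *Foxo3* in chr10:42181841-42276755, *Pik3ip1* in chr11:3330401-3342971 and *Igf1* in chr10:87858265-87937042. Exons of *Irs1*, *Irs2*, *Foxo1* and *Pik3ip1* overlap those of a gene annotated on the opposite strand (*Gm9747*, *9530052E02Rik*, *Gm20402* and *Gm12592*). The strand setting of the counting is not given in the sources used here, so reads of these partners cannot be told apart from theirs. Apart from the 2 overlapping pairs, the ranges of neighbors in this order did not overlap.

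**Figure D1:**
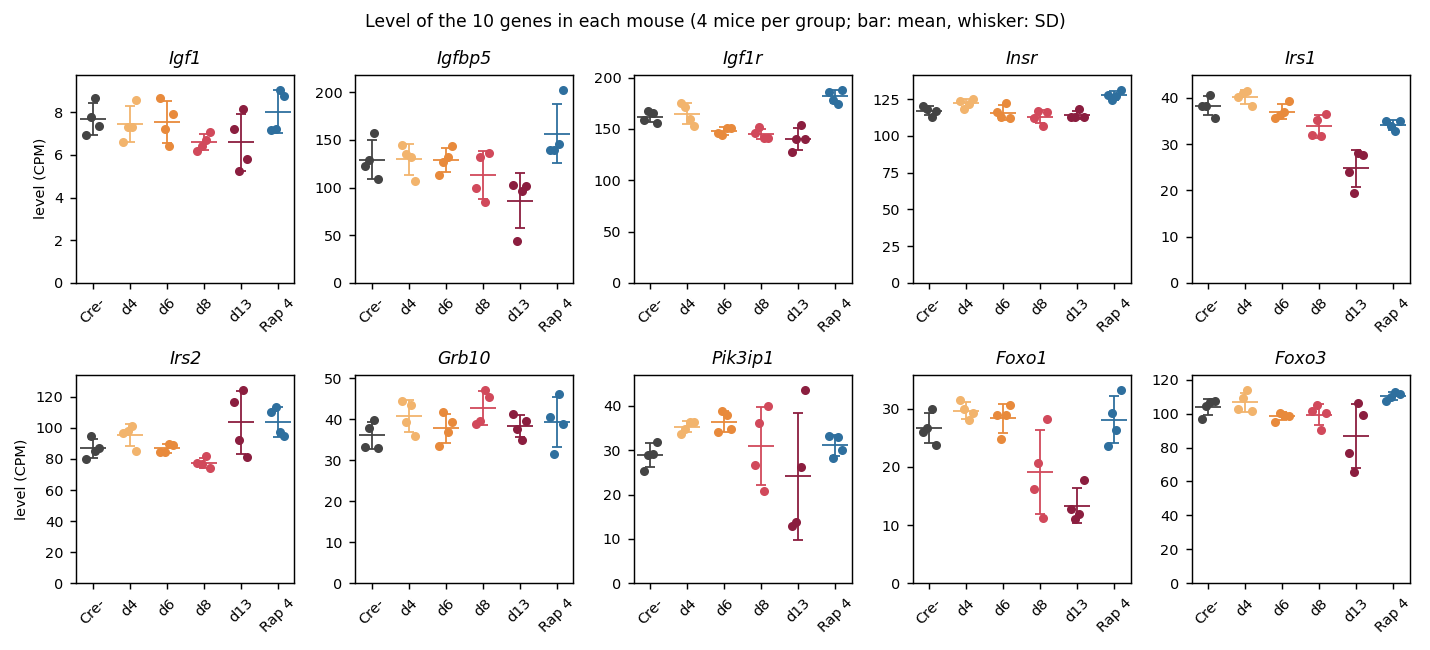
Level of each of the 10 genes (CPM, vertical axes from 0) in every mouse of the 6 groups (horizontal axes); points are mice, short bars means and whiskers SDs of 4 mice. *Foxo1* and *Irs1* lie below all controls in the 4 mice of day 13 (d13) and *Pik3ip1* spreads widely on that day, whereas *Insr* and *Grb10* stay near their control level.

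*Igf1*, the ligand of IGF1R, was low in this tissue and was called in no comparison. Controls had 6.94, 7.77, 8.67 and 7.34 CPM, and mice of day 13 had 7.20, 5.23, 8.12 and 5.78 CPM. The groups overlapped, and the log2 fold change on day 13 was −0.24 (95% CI −0.60 to 0.11, adjusted p = 0.279). In Rap 4 mice the levels were 7.15, 7.18, 9.03 and 8.73 CPM, a log2 difference of 0.07 from the controls (95% CI −0.17 to 0.30, adjusted p = 0.809).

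*Igfbp5* encodes a secreted protein that binds IGFs and alters their access to the receptor. Of the 6 groups, its SD in CPM was largest under rapamycin and on day 13. On the log2 scale its SD was 0.598 on day 13, 0.331 on day 8 and 0.260 under rapamycin. The gene lies on the minus strand of chr1:72857932-72874884. Controls had 122, 129, 157 and 109 CPM, mice of day 13 had 103, 43.9, 96.9 and 102 CPM, and Rap 4 mice had 140, 139, 145 and 202 CPM. All mice of day 13 lay below all controls and all Rap 4 mice, while Rap 4 mice overlapped the controls. Mouse B of day 13 was the lowest and mouse D of Rap 4 the highest by a wide gap. Against the controls, the log2 fold change on day 13 was −0.60 (SE 0.247, adjusted p = 0.10), which is not a call. A fit of all 24 mice gave −0.58 with an adjusted p of 0.0231. Without mouse B of day 13 the value was −0.37 (adjusted p = 0.0479), under the fold-change minimum, and without mouse C of the controls it was −0.49 (adjusted p = 0.231). Rap 4 mice were above mice of day 13 by 0.86 (SE 0.250, adjusted p = 0.0259), and without mouse D of Rap 4 by 0.72 (adjusted p = 0.0824). On day 8 the levels were 99.5, 132, 85.0 and 137 CPM, within or below the control range (log2 fold change −0.20, adjusted p = 0.421).

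The receptor genes moved little. *Insr*, the insulin receptor gene, had 120, 118, 113 and 117 CPM in controls and 113, 113, 118 and 113 CPM on day 13, which overlapped (log2 fold change −0.06, 95% CI −0.18 to 0.07, adjusted p = 0.473). The Rap 4 mice had 128, 124, 127 and 131 CPM, above all controls, with a log2 difference of 0.12 (95% CI 0.03 to 0.22) that missed the threshold (adjusted p = 0.136).

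*Igf1r*, the IGF1 receptor gene, had 159, 167, 166 and 156 CPM in controls. On day 4 the levels were 175, 172, 160 and 153 CPM, on both sides of the controls. On day 6 they were 146, 144, 151 and 151 CPM, below every control. The levels on day 8 were 146, 152, 142 and 141 CPM and on day 13 they were 127, 140, 153 and 140 CPM, again below every control. The log2 fold change was −0.14 on day 6 (SE 0.0355, adjusted p = 0.0239), −0.17 on day 8 (SE 0.0469, adjusted p = 0.0348) and −0.23 on day 13 (SE 0.0704, adjusted p = 0.0388). These passed the adjusted p but not the fold-change minimum. With a correction for GC content and length, chosen after seeing the data, the values were −0.16 (adjusted p = 0.00770), −0.13 (adjusted p = 0.0540) and −0.14 (adjusted p = 0.187). The fit of all 24 mice gave adjusted p-values of 0.285, 0.0549 and 0.00324 for the same days. Rap 4 mice had 186, 179, 175 and 188 CPM, above every control (log2 difference 0.17, adjusted p = 0.0675) and above every mouse of day 13 (0.38, SE 0.0747, adjusted p = 0.00479). Between Rap 4 mice and controls, DESeq2 gave an adjusted p of 0.0128. The correction for GC content and length gave 0.0727 and the fit of all 24 mice 0.146.

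*Irs1*, an adaptor that carries the signal of both receptors to PI3-kinase, fell on day 13. The gene lies on the minus strand of chr1:82233101-82291416. Controls had 38.3, 38.3, 40.8 and 35.7 CPM, mice of day 4 had 40.3, 41.1, 41.5 and 38.2 CPM, and mice of day 6 had 35.6, 36.2, 37.0 and 39.4 CPM. Both early groups overlapped the controls. On day 8 the levels were 31.9, 35.2, 31.7 and 36.6 CPM, of which only mouse D lay inside the control range (log2 fold change −0.19, SE 0.0671, adjusted p = 0.0862). On day 13 they were 24, 19.4, 28.1 and 27.7 CPM, below every other mouse of the study. Day 13 gave a log2 fold change of −0.65 (SE 0.123, 95% CI −0.92 to −0.37, adjusted p = 0.00563). Rap 4 mice had 35.1, 33.9, 32.8 and 34.9 CPM, a narrow band within the range of day 8. They lay above every untreated mouse of day 13 (log2 difference 0.47, adjusted p = 0.0179, under the fold-change minimum) and below every control (−0.16, 95% CI −0.28 to −0.05, adjusted p = 0.117).

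*Irs2*, the second adaptor of this family, did not follow *Irs1*. Controls had 80.1, 94.8, 85.4 and 86.7 CPM and mice of day 13 had 116, 92.4, 124 and 81.2 CPM. The day 13 mice lay inside the control range or above it (log2 fold change 0.24, 95% CI −0.06 to 0.53, adjusted p = 0.204). On day 8 the levels were 77.2, 76.5, 81.8 and 74.4 CPM, with only mouse C inside the control range (−0.18, SE 0.0569, adjusted p = 0.0637). Levels in Rap 4 mice were 110, 114, 97.2 and 94.4 CPM, with only mouse D inside the control range (0.26, SE 0.0678, adjusted p = 0.0533). For this difference, DESeq2 gave an adjusted p of 0.0136 and the correction for GC content and length 0.00752. The fit of all 24 mice gave 0.224, and each of these fits stayed under the fold-change minimum. The F test over the 6 groups, which asks whether a gene differed between any of them, gave *Irs2* an adjusted p of 0.00465.

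The ratio of *Irs2* to *Irs1*, each per kilobase and within a mouse, does not depend on the scaling between libraries. It was looked at after the values were seen. It was 3.02, 3.58, 3.03 and 3.51 in controls, 7.01, 6.89, 6.4 and 4.24 on day 13, and 4.54, 4.85, 4.28 and 3.91 in Rap 4 mice. The ratio was above every control in all mice of day 13 and of Rap 4, and the ranges on day 4, 6 and 8 overlapped the control range. A two-sided exact permutation test gave p = 0.0286, the smallest possible, for day 13 and for Rap 4 against the controls, and 0.0857 after adjustment over the 18 ratio comparisons made. Rap 4 and day 13 overlapped (exact permutation p = 0.114).

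*Grb10*, an adaptor that binds the receptors, dampens their signal and is a substrate of mTORC1, was called in no group. Controls had 33.3, 37.8, 39.8 and 33.1 CPM, day 8 mice had 38.9, 39.5, 47.0 and 45.3 CPM, and mice of day 13 had 41.3, 37.6, 35.0 and 39.5 CPM. The groups overlapped, with log2 fold changes of 0.23 on day 8 (95% CI 0.05 to 0.42, adjusted p = 0.0953) and 0.07 on day 13 (95% CI −0.12 to 0.27, adjusted p = 0.568). Rap 4 mice ranged from 31.6 to 46.2 CPM.

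**Figure D2:**
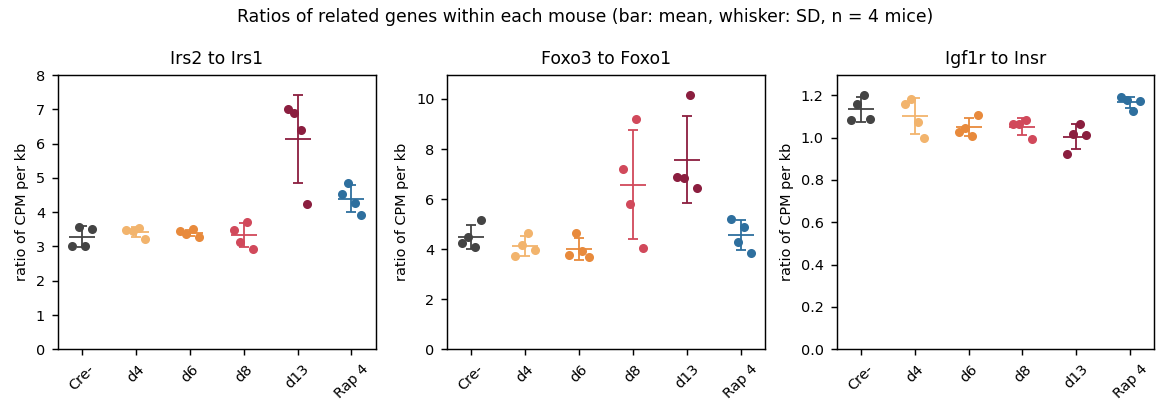
Ratio of related genes per kilobase within each mouse (vertical axes from 0) for *Irs2* to *Irs1*, *Foxo3* to *Foxo1* and *Igf1r* to *Insr* in the 6 groups; points are mice, bars means and whiskers SDs of 4 mice. The ratio of *Irs2* to *Irs1* averages 3.29 in controls, 6.13 on day 13 and 4.39 under rapamycin, and that of *Foxo3* to *Foxo1* averages 4.49, 7.58 and 4.55.

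*Pik3ip1*, which encodes a membrane protein that inhibits PI3-kinase, was higher before day 8 and scattered afterwards. Controls had 25.3, 29.0, 29.1 and 32.0 CPM, day 4 mice had 33.7, 34.8, 36.3 and 36.3 CPM, and day 6 mice had 34.1, 38.8, 37.9 and 34.9 CPM. All mice of both early groups lay above all controls. The log2 fold change was 0.29 on day 4 (SE 0.0648, adjusted p = 0.0266) and 0.33 on day 6 (SE 0.0683, adjusted p = 0.00825), both under the fold-change minimum. With the correction for GC content and length, the value of day 4 was 0.27 with an adjusted p of 0.0592. In the fit of all 24 mice, which pools the spread of all groups, the adjusted p was 0.793 for day 4 and 0.634 for day 6. On day 8 the levels were 26.7, 36.1, 20.9 and 40.0 CPM, and on day 13 they were 12.9, 13.8, 26.3 and 43.5 CPM. Mice A and B of day 13 were thus the lowest of all 24 and mouse D the highest, and the log2 fold change of −0.28 on day 13 had a 95% CI of −1.05 to 0.50 (adjusted p = 0.577). Without mouse D of day 13 it was −0.74 (adjusted p = 0.0455), and without mouse A it was −0.07 (adjusted p = 0.90) and without mouse B −0.07 (adjusted p = 0.897). Rap 4 mice, with 33.2, 28.4, 33.0 and 30.0 CPM, overlapped the controls (0.11, adjusted p = 0.494). They differed from day 13 by 0.38 (adjusted p = 0.422), by 0.83 without mouse D of day 13 (adjusted p = 0.0232), and by 0.16 without mouse A (adjusted p = 0.719) and 0.18 without mouse B of that day (adjusted p = 0.719).

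*Foxo1*, a transcription factor that AKT keeps out of the nucleus, had the largest fall of the 10 genes. It lies on the plus strand of chr3:52268336-52353221. Controls had 26.0, 26.7, 30.0 and 23.8 CPM, day 4 mice had 31.4, 30.0, 28.0 and 29.3 CPM, and day 6 mice had 28.9, 24.7, 29.0 and 30.7 CPM. These 3 groups overlapped. On day 8 the levels spread to 16.1, 20.7, 11.2 and 28.3 CPM, with mice A, B and C below every control and mouse D among them. Day 8 gave a log2 fold change of −0.49 (SE 0.219, adjusted p = 0.163), and when single mice were dropped it ran from −0.75 without mouse D (adjusted p = 0.0173) to −0.31 without mouse C of day 8 (adjusted p = 0.239). Within the 2 series of animal numbers, which controls and day 8 mice share, the mean log2 difference was −0.53 and −0.58. On day 13 the levels were 12.7, 11, 11.9 and 17.7 CPM, below every control in all 4 mice. Day 13 gave a log2 fold change of −1.02 (SE 0.154, 95% CI −1.36 to −0.68, adjusted p = 0.00212), a level 0.493 times that of the controls. Levels in Rap 4 mice were 23.6, 29.3, 26.4 and 33.2 CPM, which overlapped the controls (0.08, 95% CI −0.13 to 0.29, adjusted p = 0.716). They were above every mouse of day 13, by 1.09 (SE 0.166, adjusted p = 0.00163).

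*Foxo3*, the more abundant FOXO gene, had 96.8, 105, 107 and 108 CPM in controls and 76.7, 65.7, 106 and 99.3 CPM on day 13. Mice A and B of day 13 were below every control and mice C and D within the control range (log2 fold change −0.28, 95% CI −0.60 to 0.05, adjusted p = 0.182). In Rap 4 mice there were 107, 110, 113 and 111 CPM (0.09, adjusted p = 0.358). The ratio of *Foxo3* to *Foxo1* per kilobase was 4.26, 4.48, 4.07 and 5.17 in controls and 6.90, 6.83, 10.2 and 6.43 on day 13. It was above every control on day 13 (exact permutation p = 0.0286, 0.0857 after adjustment over the 18 ratio comparisons), and 5.2, 4.28, 4.89 and 3.84 in Rap 4 mice, which overlapped the controls.

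**Figure D3:**
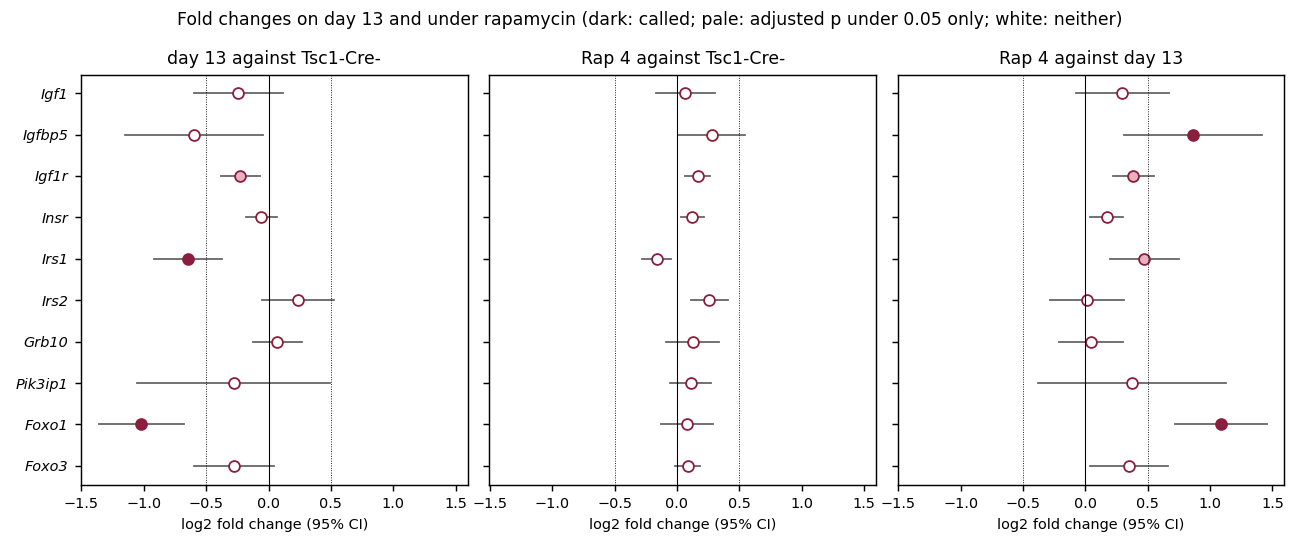
Log2 fold change (horizontal axis, point) with its 95% confidence interval (line) of the 10 genes for day 13 against controls, Rap 4 against controls and Rap 4 against day 13; dotted lines mark the fold-change minimum of 0.5. Dark points are called, namely *Foxo1* and *Irs1* on day 13 and *Foxo1* and *Igfbp5* for Rap 4 against day 13, and no point is dark for Rap 4 against controls.

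Counted over the 10 genes, 0 were called on day 4, day 6 and day 8, where 0.68%, 1.32% and 3.99% of all genes tested were called. At an unadjusted p under 0.05, 4, 3 and 6 of the 10 members passed at these time points, beside 18.4%, 24.2% and 28.9% of all genes, and DESeq2 called 0. On day 13, 2 of 10 were called, both lower, beside 16.5% of all genes, 8.06% being lower. For Rap 4 against controls, 0 of 10 were called beside 1.41% of all genes, with 5 of 10 at an unadjusted p under 0.05 (18.1% of all genes) and 0 called by DESeq2. For Rap 4 against day 13, 2 of 10 were called, both higher, beside 21.1% of all genes, 9.94% being higher. With 10 genes, the share called in the comparisons with day 13 was near that background. Without the fold-change minimum, 1 member passed on day 4 (4.16% of all genes), 2 on day 6 (10.1%), 1 on day 8 (13.3%), 3 on day 13 (26.9%), 0 for Rap 4 against controls (3.57%) and 4 for Rap 4 against day 13 (30.8%).

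The median log2 fold change of the members at the 4 successive time points was 0.07, −0.02, −0.17 and −0.26, beside −0.0047, −0.02, −0.03 and −0.04 over all genes tested. The median of the absolute changes was 0.18 on day 8 and 0.26 on day 13 for the members, under the 0.19 and 0.32 over all genes. For Rap 4 against controls the median of the signed changes was 0.12, beside 0.01 over all genes. All comparisons with controls share the same 4 control mice. The CPM ranges of the groups were apart from the controls for 1 member on day 4 (11.7% of all genes), 2 on day 6 (16%) and 1 on day 8 (20.4%). The ranges of day 13 and controls were apart for 4 of the 10 genes, all lower (*Irs1*, *Igf1r*, *Foxo1* and *Igfbp5*), beside 30.8% of all genes, 13.7% being lower. Those of Rap 4 and controls were apart for 3 (11.9%). For Rap 4 against day 13 they were apart for 6, all higher, beside 32.7% of all genes, 15% being higher.

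The F test over the 6 groups passed for 6 of the 10 genes at an adjusted p under 0.05, beside 41.9% of all genes. *Irs1* (adjusted p = 9.43e-06), *Igf1r* (3.26e-05) and *Foxo1* (1.25e-04) led, followed by *Irs2*, *Insr* (0.00816) and *Igfbp5* (0.0255). *Foxo3* (0.0555), *Igf1* (0.249), *Pik3ip1* (0.322) and *Grb10* (0.345) did not pass.

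**Figure D4:**
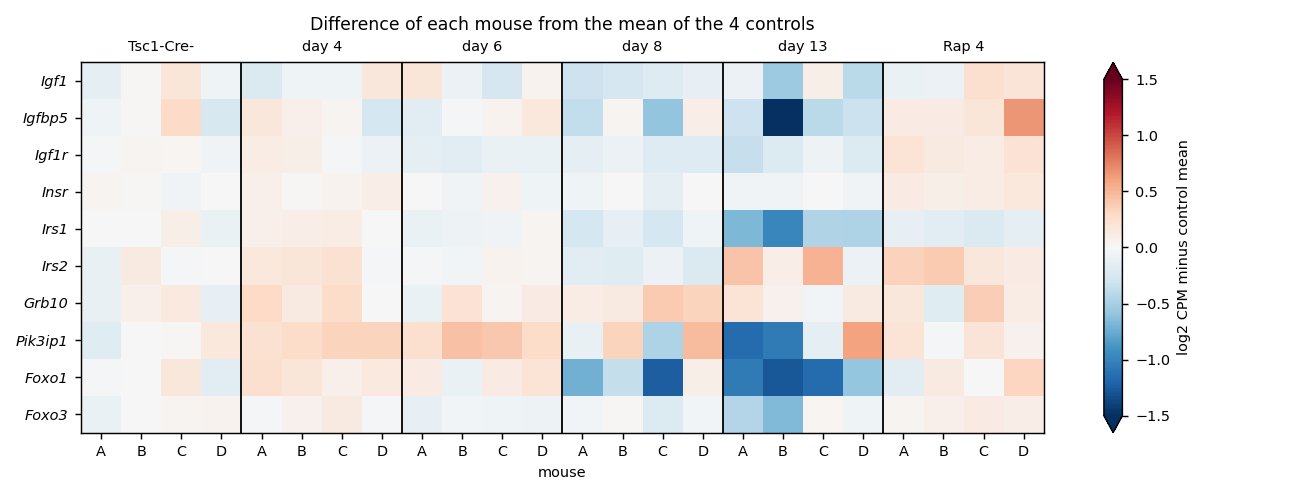
Difference of each mouse (columns, by group and letter) from the mean of the 4 controls in log2 CPM for the 10 genes (rows); red is higher and blue lower, and the scale ends at 1.5 in either direction. *Foxo1* is blue in 3 of 4 mice on day 8 and in all 4 on day 13, *Irs1* is blue in all 4 on day 13, and mouse B of day 13 is the darkest in *Igfbp5*.

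Markers of other cells moved with some of these levels, and their part in the results was not tested. On day 13 the 6 astrocyte markers summed to 1228 to 2141 CPM, against 1106 to 1150 CPM in controls, with 1 of 6 called higher (*Gfap*, log2 fold change 1.91) and 1 lower (*Gja1*, −0.93). The 7 markers of GABAergic interneurons summed to 376 to 559 CPM, against 372 to 405 CPM, with 1 of 7 called (*Npy*, 2.38), and the 7 microglia markers to 244 to 346 CPM, against 247 to 294 CPM, with 1 of 7 called (*C1qa*, 0.72). The 6 immediate early genes of neuronal activity summed to between 100 and 1074 CPM on day 13, against 154 to 202 CPM, with 3 of 6 called higher. On day 4, on day 6 and in Rap 4 mice 2 of 6 were called lower, with sums of 106 to 145, 131 to 173 and 114 to 162 CPM. Of the excitatory neuron markers, 1 of 6 was called, *Slc17a7*, which was higher by 0.73. On day 8, mice A and C, which had the lowest *Foxo1*, had the highest astrocyte sums, 1403 and 1732 CPM, while mice B and D had 884 and 941 CPM. On that day 0 of 6 astrocyte markers were called higher and 1 lower. On day 13, mouse B had the lowest *Foxo1* and the highest astrocyte sum, 2141 CPM. Mouse C of day 13, with the next lowest *Foxo1* (11.9 CPM), had the lowest astrocyte sum, 1228 CPM. On day 13, mouse D, which had the highest *Foxo1* and *Pik3ip1*, had the lowest sum of immediate early genes. The other mice of that day did not continue this order. Mouse C had the highest sum, 1074 CPM, but more *Pik3ip1* (26.3 CPM) than mice A and B (12.9 and 13.8 CPM). Mice A and B had sums of 693 and 432 CPM, although mouse B had the lowest *Foxo1*. None of the markers of these 5 lists was at 0 in any group. Under rapamycin, 3 of 6 astrocyte, 2 of 7 microglia, 2 of 5 oligodendrocyte and 1 of 5 endothelial markers were called lower than in controls.

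The genes most like each member were found by Pearson correlation of log2 CPM over the 24 mice among 13901 protein-coding genes, as a description in which the groups and libraries are shared. For *Foxo1* they were *Kif26b* (r = 0.967), *Nek10* (0.941) and *Vwa3a* (0.938), and for *Irs1* they were *Arhgef10l* (0.950), *Tmcc1* (0.947) and *Plekhn1* (0.942). *Foxo3* was most like *Camk2g* (0.935), *Rnf144b* and *Cyp4f15*, *Pik3ip1* most like *Mxd4* (0.920), *Limd2* and *Dbp*, and *Igfbp5* most like *Hlf* (0.919), *Aifm3* and *Adcy10*. Among the receptors, the genes close to *Igf1r* included *Zcchc7* (0.894) and *Jade2*, and *Insr* was most like *Igdcc3* (0.862), *B3galt5* and *Hnrnpd*. The other members had weaker partners, *Kdm3a* (0.756), *Spns2* and *Tet2* for *Irs2*, *Adcyap1* (0.754), *Alx4* and *Dsc3* for *Grb10*, and *Bcl2l11* (0.762), *Zbtb10* and *Cnot6l* for *Igf1*. Between members, r was 0.831 for *Irs1* with *Foxo1*, 0.794 for *Foxo1* with *Igfbp5*, 0.794 for *Foxo3* with *Igfbp5* and 0.769 for *Insr* with *Igf1r*. *Irs1* and *Irs2* had r = −0.227.

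A list of 100 other genes of the pathway was counted beside the members, of which 93 or 94 were tested in a comparison. On day 4, 3 of 94 were called, all higher, beside 0.68% of all genes. On day 6, 3 were higher and 1 lower (4 of 94, beside 1.32%), and on day 8, 6 were higher and 2 lower (8 of 94, beside 3.99%). On day 13, 17 were higher and 5 lower (22 of 93, beside 16.5%). The list's median log2 fold change on day 13 was 0.06, beside −0.04 over all genes. For Rap 4 against controls 4 were higher and 3 lower (7 of 94, beside 1.41%), and against day 13, 4 were higher and 19 lower (23 of 93, beside 21.1%).

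Of the ligands and binding proteins, *Stc1* and *Stc2* were called higher at all 4 time points, on day 4 close to the threshold. For day 4, 15 alternative fits were run, and 8 of these 15 leave out 1 mouse. The day 4 call was lost under 9 of the 15 for *Stc1* and under 8 for *Stc2*. Among them was the fit of all 24 mice (adjusted p = 0.283 and 0.227). The calls of day 6, 8 and 13 were lost under none run. *Stc2*, which encodes a stanniocalcin that blocks the IGFBP protease PAPP-A, had 2.31, 3.40, 2.42 and 2.59 CPM in controls, 4.34, 4.62, 4.19 and 3.55 CPM on day 4, 5.22, 5.98, 7.73 and 5.49 CPM on day 6, 9.79, 10.3, 12.8 and 9.90 CPM on day 8, and 16.0, 23.7, 11.9 and 12.7 CPM on day 13. Every mouse of these 4 groups lay above every control. The log2 fold change of *Stc2* was 0.64 on day 4 (adjusted p = 0.0260), 1.18 on day 6 (adjusted p = 3.62e-04), 1.98 on day 8 (adjusted p = 4.11e-05) and 2.56 on day 13 (adjusted p = 2.84e-04). Rap 4 mice had 3.99, 2.49, 3.5 and 2.48 CPM and overlapped the controls. *Stc1*, its relative, was called with log2 fold changes of 0.53, 1.01, 0.97 and 0.95 at the 4 successive time points. Of all genes tested on day 13, 16.5% were called, 8.06% being lower. Of the list's 14 ligands and binding proteins, 6 were called higher on that day and 0 lower. Besides both stanniocalcins these were *Igfbp3* (1.41), *Igfbp6* (1.76), *Igfbp7* (1.86) and *Pappa* (1.91), the gene of PAPP-A, which were picked for mention after their values were seen. *Igfbp5*, which was not called, had a log2 fold change of the opposite sign on that day. All 6 were called lower in Rap 4 mice than on day 13. The day 13 call of *Igfbp3* was lost without mouse A, C or D of the controls (adjusted p up to 0.0621), and its call between Rap 4 and day 13 without mouse D of Rap 4 (adjusted p = 0.0589).

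Among the genes of PI3-kinase, AKT and their regulators, *Trib3*, a pseudokinase gene whose product can bind AKT, had 0.202, 0.334, 0.267 and 0.153 CPM in controls, 4.88, 1.42, 6.12 and 1.46 CPM on day 8 and 5.86, 13.2, 2.24 and 5.43 CPM on day 13. These control levels rest on 8 to 20 counts per mouse. The log2 fold change was 3.81 on day 8 (SE 0.536, adjusted p = 0.00159) and 4.76 on day 13 (SE 0.536, adjusted p = 6.62e-04), and the mice of both days lay above all controls. *Trib3* was also called on day 6 (1.34, adjusted p = 0.0451), a call lost under 9 of 15 alternatives. *Sgk1*, a kinase gene related to AKT, was higher on day 4 (0.81, adjusted p = 0.00357), on day 13 (0.97, adjusted p = 0.00397) and in Rap 4 mice (1.20, adjusted p = 3.14e-04). Rap 4 mice had 165, 164, 199 and 186 CPM of *Sgk1*, against 56.9, 93.5, 83.2 and 77.2 CPM in controls. Among the receptors and adaptors, *Socs3*, a feedback inhibitor of cytokine and insulin signaling, had 98.8, 35.4, 7.47 and 0.989 CPM on day 13 and 0.826 to 1.09 CPM in controls. Mouse D of day 13 lay within the control range, and the log2 fold change of 5.20 had an SE of 1.13 (adjusted p = 0.0100).

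Against the controls, falls were fewer. Of the other growth factor receptors, the neuregulin receptor gene *Erbb3* was lower on day 6 (−0.54), day 8 (−0.66), day 13 (−0.82) and in Rap 4 mice (−0.64, adjusted p = 0.0234). Its call was lost under 3 of 15 alternatives on day 6 and 7 of 15 in Rap 4 mice. The 5 oligodendrocyte markers summed to 2740 to 4268 CPM in controls, 2862 to 3106 on day 6, 2585 to 2971 on day 8, 2198 to 4322 on day 13 and 2387 to 3278 CPM in Rap 4 mice, with 0, 1, 0 and 2 of 5 called lower, and their part in the *Erbb3* values was not tested. *Erbb4*, a second neuregulin receptor, was lower on day 13 (−0.71, SE 0.146, adjusted p = 0.00803) and higher in Rap 4 mice than on day 13 (0.78, adjusted p = 0.00503). *Kdr*, a VEGF receptor gene of vessels, was lower in Rap 4 mice than in controls (−1.14, adjusted p = 3.81e-04), with 12.2, 12.7, 11.3 and 11.9 CPM against 33.8, 27.3, 24 and 21.2 CPM. Untreated mice of day 4, with 20.8, 18.4, 16.4 and 20.8 CPM, also lay below every control, though without a call. The 5 endothelial markers summed to 90.8 to 104 CPM in Rap 4 mice, against 112 to 119 CPM in controls. Their part in the *Kdr* values was not tested. The FGF receptor gene *Fgfr2* was lower both in Rap 4 mice (−0.64, adjusted p = 0.00401) and on day 13 (−0.57, adjusted p = 0.00652). It had 63.7, 51.1, 60.7 and 65.1 CPM on day 13 and 53.6, 51.2, 52.8 and 68.2 CPM in Rap 4 mice, all below the controls, which ranged from 75.0 to 102 CPM. Its day 13 call was lost under 3 of 15 alternatives, in which the value was −0.50 or smaller in size.

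Among the 20 listed genes of the FOXO family and FOXO targets, 3 were higher and 2 lower on day 13. Beside them, 16.5% of all genes tested were called, 8.06% being lower. The higher ones of this list were *Gadd45a* (2.00, adjusted p = 0.0040), *Klf9* (0.68, adjusted p = 0.00114) and *Cited2* (0.56, adjusted p = 0.0347). The calls of *Gadd45a* and *Klf9* were lost under 0 of 15 alternatives and that of *Cited2* under 9. The lower ones were *Ccng2* (−0.59, adjusted p = 0.0289) and *Foxo4* (−0.54, adjusted p = 0.0170). The calls of *Ccng2* and *Foxo4* were lost under 6 and 5 of 15 alternatives. *Foxo4* and the higher genes were picked for mention after their values were seen. In Rap 4 mice, *Pdk4*, a kinase gene that turns down glucose oxidation, was higher than in controls (0.84, adjusted p = 0.00148), as was *Klf15* (0.65, adjusted p = 0.00176). In the fit of all 24 mice the adjusted p of *Pdk4* was 0.0970. Both were also higher than on day 13, by 1.09 and 0.71, calls that were lost under 7 and 4 of 15 alternatives.

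**Figure D5:**
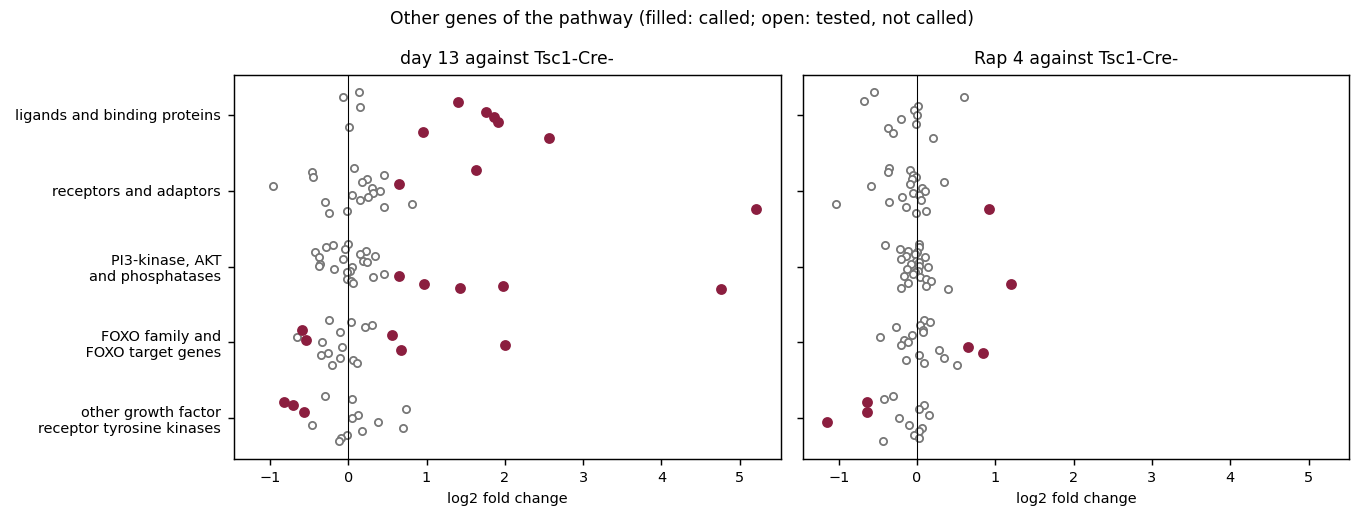
Log2 fold change (horizontal axis) of the tested genes of the pathway list by subgroup (rows), on day 13 and under rapamycin, both against controls; filled points are called and open points are not. On day 13 the called ligands and binding proteins all lie to the right of 0 and the called growth factor receptors to the left.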

How the data were processed

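RNA of 24 hippocampi was measured, 1 library per mouse. The authors depleted rRNA, built stranded libraries, trimmed the paired reads with cutadapt 1.16.5, aligned them with STAR 2.7.2b to GRCm38 and counted them per GENCODE gene with featureCounts 1.6.4. The authors deposited whole-number read counts without normalization. The group and letter (A to D) of each mouse come from its title.

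Gene names and coordinates come from GENCODE M21, in which 55144 of 55385 identifiers were found (54487 with the same version), and promoter sequences from RefSeq on GRCm38.p6, in which 9 of the 10 members had an entry. Each comparison used edgeR 4.0.16 in R 4.3.3 on its 8 mice, with filterByExpr, TMM normalization, the quasi-likelihood test and Benjamini-Hochberg adjustment. An F test used all 24 mice and 27110 genes. CPM used TMM factors over 24 mice, and log2 CPM a prior count of 2. For ratios, all 70 arrangements of 8 mice were enumerated in a two-sided exact permutation test. The alternatives were DESeq2 1.42.0, all genes kept whatever their counts, a fit of all 24 mice, size factors of DESeq2, no fold-change minimum, *Xist* as a covariate, a block for the letter, a block for the animal series (day 8 only), each mouse left out and, added after the data were seen, a correction for GC content and length. On counts simulated for day 8 against controls, edgeR recovered 86% of 200 genes changed 2-fold among 24540 genes and called 5 unchanged genes, and DESeq2 recovered 93% among 25085 and called 19.

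All 10 members are named. Of the pathway list, up to 3 called genes per direction and comparison are named, with exceptions said in the text, and 3 genes with at least a mean CPM of 1 are given as most like each member, except that 1 of those for *Igf1r* is not reported here. Members, lists and tests were chosen with earlier results of these data known, the pathway and marker lists from general knowledge. The precision of low genes is limited by depth, *Igf1* having at least 206 counts per mouse. Results for proteins and phosphorylation were not analysed here.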

Additional observations from a re-analysis of the deposited data

Results flagged for a closer look

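Of 60 sets of 4 mice (10 genes in 6 groups), 3 held a mouse far from the other 3 by Dixon's ratio, and chance alone gives about 1 in 20. *Insr* was highest in mouse C of day 13, with 118 CPM against 113 CPM in each of the other 3. *Igfbp5* was lowest in mouse B of day 13, with 43.9 CPM against 96.9 to 103 CPM, and this mouse also had the deepest library, the highest astrocyte marker sum (2141 CPM) and the lowest *Irs1* (19.4 CPM). *Igfbp5* was highest in mouse D of Rap 4, with 202 CPM against 139 to 145 CPM. The part of depth or of astrocyte markers in these values was not tested.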

How the results depend on the processing

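No called log2 fold change of a member changed sign under any alternative run. DESeq2, its size factors in edgeR, keeping all genes, *Xist* as a covariate, the correction for GC content and length and, on day 8, the series block changed no call of a member. Without a fold-change minimum, 1 member was called on day 4, 2 on day 6, 1 on day 8 and 4 for Rap 4 against day 13, and 13, 17, 25 and 36 pathway genes were called on day 4, 6, 8 and 13, 15 for Rap 4 against controls and 37 for Rap 4 against day 13. *Xist* as a covariate and the fit of all 24 mice each left 1 pathway gene on day 4 and 2 on day 6. With each mouse left out, 0 to 1 members were called on day 8, 2 to 3 on day 13 and 1 to 4 for Rap 4 against day 13, and 1 to 3 pathway genes on day 4, 3 to 4 on day 6, 6 to 11 on day 8, 17 to 31 on day 13, 5 to 9 for Rap 4 against controls and 17 to 32 for Rap 4 against day 13. Without mouse D of day 13, 4 members were called for Rap 4 against day 13, and without mouse D of Rap 4, 1. The causes were not tested. The fit of all 24 mice called *Igfbp5* on day 13. *Irs1* passed the minimum for Rap 4 against day 13 without mouse C (0.53) or D (0.53) of day 13 or mouse C of Rap 4 (0.50).

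Same-letter mice share only a letter: the correlation of their deviations from the group means ranged from −0.12 to 0.09, and the own letter was the best match in 4 of 24 cases. With the replicate letter as a block, 2 members were called on day 13 and 2 for Rap 4 against day 13, 0 elsewhere, and 3, 4, 7 and 23 pathway genes on day 4, 6, 8 and 13, 6 for Rap 4 against controls and 21 for Rap 4 against day 13, and 6 members passed the F test.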
